A study of Mus musculus with 8 samples.

Results

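Livers that had received an adenovirus with a short hairpin RNA against Dnajb9 (shDnajb9) were compared here, over the whole transcriptome, with livers that had received the matching control virus, named lacZ1. All 24062 gene entries of the count tables were taken, of which 13767 had enough counts to be tested, and all 4 libraries of these 2 groups were used, 2 per group, out of 8 in the study. Both groups were lean wild-type C57BL/6 mice of 3 months, given 0.1 OD of virus and killed 1 week later after 6 h without food. The other 4 libraries, a hairpin against Rictor (shRictor) and its control lacZ2, came from mice of 4 months under the same treatment and entered the fit to estimate the spread. The labels give neither the sex of the mice nor the cargo of the lacZ viruses. They do not say whether the libraries of a group were separate animals, so p-values measure only the spread between these samples.

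Dnajb9, also called ERdj4, is a J-domain co-chaperone of the endoplasmic reticulum (ER). J-domain proteins stimulate the ATPase of BiP, the ER Hsp70 encoded by Hspa5, and so set when BiP binds and releases its clients. The title of the study places this chaperone upstream of mTORC2, the rapamycin-insensitive mTOR complex built around the protein Rictor, which phosphorylates AKT and thereby steers glucose and lipid metabolism in the liver.

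The depth was 9791933 and 7830716 gene counts in the lacZ1 libraries and 6426164 and 9606030 in the shDnajb9 libraries. Replicates were farther apart than counting alone gives, the chi-square statistic over its degrees of freedom being 18.2 for lacZ1 and 43.8 for shDnajb9. Levels are given as CPM, the edgeR unit of counts relative to library size, after TMM scaling (a trimmed mean over genes), which equalises libraries on the bulk of their genes. The lowest levels rest on few reads: in shDnajb9 replicate 1, 4 counts of Cd163 gave 0.838 CPM. Folds that include levels this low are imprecise. Albumin, which defines the hepatocyte, was abundant throughout, at 26200 and 35500 CPM in the controls and 22400 and 25500 CPM with the hairpin. The Y-linked genes Ddx3y, Uty, Kdm5d and Eif2s3y each had at least 134 counts in each of the 4 libraries, while Xist, expressed from the inactive X of females, had between 0 and 6. None of these 4 Y-linked genes was called different, with log2 fold changes of 0.56, 0.61, 0.22 and 0.53.

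At a Benjamini-Hochberg adjusted p under 0.05 in edgeR's quasi-likelihood test, 1597 genes rose with the Dnajb9 hairpin and 1728 fell, which is 11.6% and 12.6% of the genes tested. Of these, 1114 were at least 2-fold higher and 1406 at least 2-fold lower. Counts of called list members in the full fit are to be read against the 11.6% and 12.6%. Other fits called other numbers of genes, so list counts from them have another background. That background follows here for total counts and stands in the closing section for left-out libraries. The balance depended on the scaling: the median log2 fold change of all tested genes was -0.05 with TMM scaling and -0.46 with total counts, under which 610 genes rose and 3354 fell. With an offset for transcript length and GC content 2513 rose and 1577 fell. A stricter set was therefore formed from 6 fits, namely the full fit, the 4 fits that each leave out 1 of the 4 libraries, and the fit on total counts. A call with the same sign in all 6, here termed a held call, was found for 266 genes that rose and 573 that fell, or 1.93% and 4.16% of the genes tested.

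**Figure D1:**
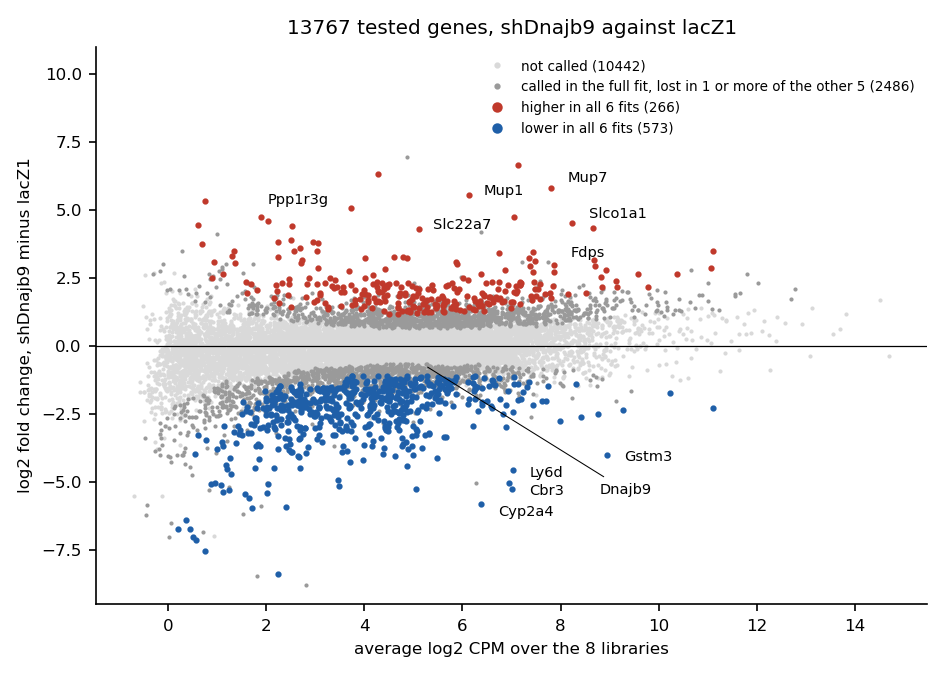
Log2 fold change of shDnajb9 minus lacZ1 (vertical axis) against average log2 CPM over the 8 libraries (horizontal axis), 1 point per tested gene. Red points are the 266 genes higher in all 6 fits and blue points the 573 lower in all 6, dark grey points are called in the full fit but lost in at least 1 of the other 5, and Dnajb9 itself lies among the light points near zero.

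The targeted transcript was lower in both hairpin libraries by a modest amount. Dnajb9 (chr12:44205559-44210326, minus strand, mm10) measured 30.6 and 38.0 CPM in the control livers against 22.0 and 20.3 CPM with the hairpin. The groups did not overlap, as in the 35.1% of all tested genes that were lower in both hairpin libraries than in both controls. The 1.62-fold reduction (log2 fold change -0.70, SE 0.247) was not called, with an edgeR adjusted p of 0.056. It passed on total counts (-1.12, adjusted p = 0.0111), with the length and GC offset (-0.94, adjusted p = 0.00313) and with no filter on low counts (-0.71, adjusted p = 0.0484). It did not pass with any of the 4 libraries left out (-0.54 to -0.87, adjusted p from 0.112 to 0.245), with DESeq2 (adjusted p = 0.0793), with limma-voom (adjusted p = 0.0594) or in a fit of the 4 libraries alone (adjusted p = 0.0773). Rictor measured 65.4 and 68.8 CPM in lacZ1 against 33.3 and 63.4 CPM. Only the first hairpin library was clearly lower, and the difference was not called (-0.46, adjusted p = 0.239). The Rictor difference rested on that library, at -1.01 without shDnajb9 replicate 2 and -0.08 without shDnajb9 replicate 1. With the length and GC offset it was -0.15 and not called.

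Other ER J-domain proteins and partners of BiP rose in part. Of the 21 genes in this list, Dnajb9 included, 8 rose and none fell, with a median log2 fold change of 0.42, and none of the 8 calls held in all 6 fits. No member was called without lacZ1 replicate 1, and 1 was called without shDnajb9 replicate 1, 3 without lacZ1 replicate 2 and, on total counts, 3 higher and 2 lower, the latter being Dnajb9 itself and Dnajc10. Among the J-domain proteins the risers were Dnajb11, which binds unfolded chains with BiP (63.0 and 66.9 against 172 and 111 CPM, log2 fold change 1.12), Dnajc25 (1.01), Dnajc3, the inhibitor of eIF2-alpha kinases (0.94), and Dnajc1 (0.77). The other 4 risers were BiP partners. Sdf2l1, a component of BiP and Dnajb11 complexes, stood at 23.0 and 30.9 against 105 and 59.5 CPM (1.61). Sil1, a nucleotide exchange factor of BiP, gave 1.41, the secreted stress factor Manf gave 1.30, and the exchange factor Hyou1 gave 1.10. Hspa5 itself stood at 542 and 611 against 1380 and 947 CPM, a difference of 1.01 that was not called (adjusted p = 0.0678). None of the sensors and effectors of the unfolded protein response was called: Xbp1 gave 0.30, Atf6 0.16, Eif2ak3 (PERK) 0.05 and Ern1 (IRE1) -0.14. The remaining members, Dnajc10 at -0.40, Dnajc16 at -0.57, Dnajb12 at 0.18, Dnajb14 at 0.41, Dnajc18 at 0.25, Sec63 at 0.60 and Creld2 at 0.42, were not called either.

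Ppp1r3g, a glycogen-targeting subunit of protein phosphatase 1, had the smallest adjusted p of the risers and went from 1.15 and 1.43 CPM in lacZ1 to 44.4 and 41.7 CPM in shDnajb9 (33.3-fold, log2 fold change 5.06, SE 0.357, edgeR adjusted p = 1.81e-05). Both hairpin libraries were far above both controls, and the 2 hairpin values lay close together. Slc22a7, the organic anion transporter OAT2, went from 4.52 and 7.15 to 162 and 71.1 CPM (4.32, SE 0.410, adjusted p = 6.07e-05). The mitochondrial and peroxisomal membrane protein gene Mpv17l went from 5.94 and 7.99 to 71.1 and 62.9 CPM (3.27), and the syntrophin gene Sntg2 from 1.24 and 1.55 to 19.1 and 19.5 CPM (3.79). Agxt, the peroxisomal alanine-glyoxylate aminotransferase, rose from 43.2 and 55.9 to 539 and 336 CPM (3.14), with the first hairpin library the higher. The cytochrome P450 gene Cyp2d40 rose from 12.2 and 17.1 to 154 and 94.0 CPM (3.08), aldolase C (Aldoc) from 3.99 and 4.65 to 36.5 and 22.9 CPM (2.77), and the protease gene Capn8 from 8.33 and 6.08 to 50.5 and 38.8 CPM (2.62). None of these genes overlapped between the groups, which was a condition for choosing them. Alas2, the erythroid form of the first enzyme of haem synthesis, stood at 40.9 and 48.5 CPM against 593 and 259 CPM (3.25, adjusted p = 0.000141). Alas2 is also on the list of male-biased liver genes used below. Of the 10 tested erythroid and platelet markers, which include Alas2, 2 rose and 3 fell. Klf1, an erythroid transcription factor, rose from 3.81 and 2.38 to 8.18 and 7.99 CPM (1.36, adjusted p = 0.0196), a call lost on total counts, without either control library and without shDnajb9 replicate 1. Slc4a1, the red cell anion exchanger, fell from 23.0 and 10.7 to 1.05 and 1.48 CPM, a call lost without shDnajb9 replicate 1. The globin genes Hbb-bs, Hbb-bt, Hba-a1 and Hba-a2 had no counts in any of the 8 libraries of the study. Reads without a unique alignment were not counted, so this does not show that globin RNA was absent.

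Among the fallers with the smallest adjusted p, Ly6d, which encodes a surface protein, fell from 200 and 199 CPM to 9.22 and 7.65 CPM (23.8-fold lower, log2 fold change -4.58, SE 0.392, edgeR adjusted p = 3.78e-05). Cbr3, a carbonyl reductase, fell from 205 and 284 to 4.61 and 7.76 CPM (38.4-fold), and Abcc4, an exporter of bile acids and cyclic nucleotides, from 86.3 and 94.2 to 3.56 and 6.28 CPM (17.6-fold). For all 3 genes both hairpin libraries lay far below both controls. Cyp2a4, a steroid hydroxylase that is higher in female than in male mouse liver, fell from 78.2 and 189 to 2.52 and 2.28 CPM (55.8-fold), although 38.0% of its 50-base stretches occur in another gene, so reads of its close relatives may be split with it. Cox6b2, the testis form of a cytochrome oxidase subunit, fell from 17.3 and 14.9 to 0.629 and 0.457 CPM (30.2-fold). Epb4.1l1, a membrane skeleton protein gene, fell from 49.6 and 39.8 to 3.35 and 5.02 CPM, and the mitochondrial acyl-CoA thioesterase gene Acot2, of which 27.7% is shared sequence, from 54.3 and 49.2 to 6.29 and 4.68 CPM.

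**Figure D2:**
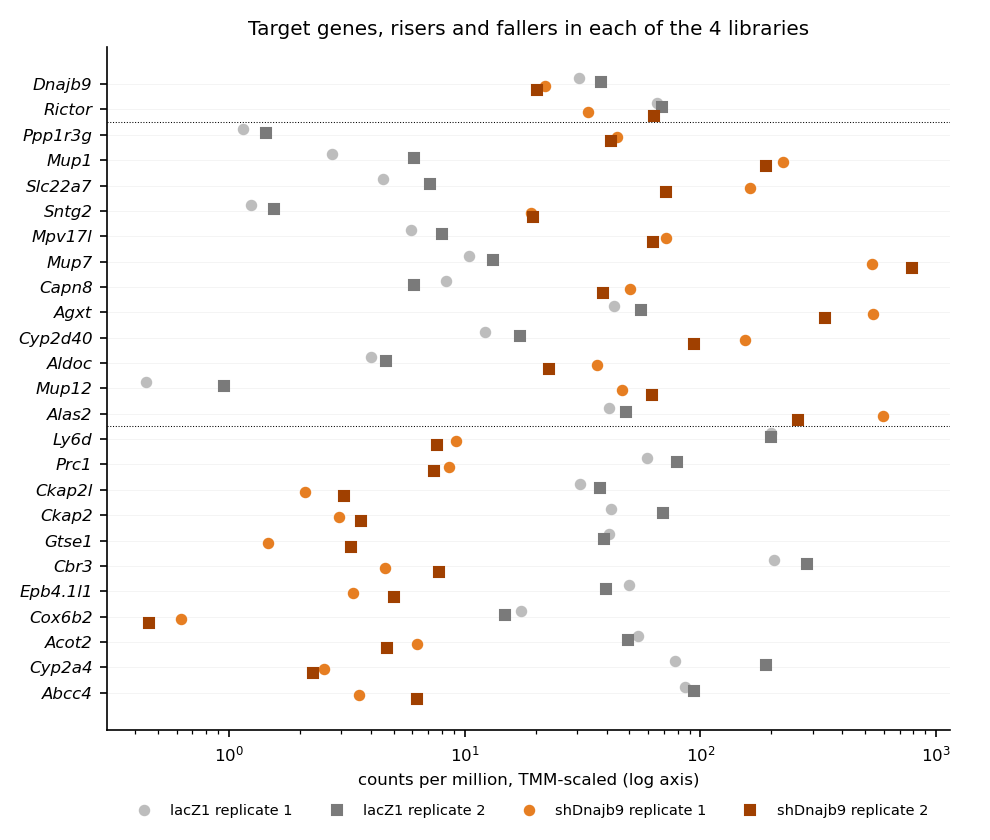
TMM-scaled CPM on a log axis for Dnajb9 and Rictor (top), the 12 risers (middle) and 11 fallers (bottom) with small adjusted p, 1 symbol per library. The 23 risers and fallers were picked among genes without overlap between the grey lacZ1 symbols and the orange and brown shDnajb9 symbols. The Rictor value of shDnajb9 replicate 2 (63.4) lies near the controls (65.4 and 68.8).

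Genes of mitosis fell almost without exception. Of 67 tested mitosis genes, 63 fell, 60 of them with held calls, and 1 rose, against 12.6% lower and 11.6% higher among all tested genes, and the median log2 fold change was -2.73. All 15 mitotic kinases and cyclins fell with held calls, as did 21 of 22 spindle and kinesin genes and 16 of 19 kinetochore, cohesin and condensin genes. Ckap2, which stabilises spindle microtubules, went from 41.9 and 69.5 CPM in lacZ1 to 2.93 and 3.65 CPM in shDnajb9 (16.5-fold lower). Gtse1, a G2 and S phase protein that restrains p53, fell from 41.1 and 39.0 to 1.47 and 3.31 CPM (15.6-fold), and Ckap2l, a spindle protein, from 30.7 and 37.6 to 2.10 and 3.08 CPM (12.7-fold). Prc1, which bundles the microtubules of the central spindle at cytokinesis, fell from 59.6 and 79.3 to 8.59 and 7.42 CPM (8.72-fold). Each of the 4 had an edgeR adjusted p of 3.78e-05, and in none did the groups overlap, a condition for choosing the leading fallers. The 1 riser was Pttg1, the securin gene, at 6.74 and 9.90 against 16.6 and 14.8 CPM (0.92, adjusted p = 0.0284), and total counts or leaving out the first library of either group ended its call.

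The promoters of the mitosis genes were searched for 2 short motifs known from genes transcribed in late cell cycle, TTTGAA (the core of the cell cycle homology region) and CCAAT (the site of NF-Y). Windows of 300 bases, from 250 before to 50 after the start (RefSeq, GRCm38.p6, 1 window per gene, both strands), were found for 57 of the 67 genes. TTTGAA was present in 38 of these (66.7%), against 12.4% of 10757 tested genes with a window and 18.1% of all 27025 windows. CCAAT was present in 44 (77.2%, against 38.8% and 37.9%), and both motifs in 33 (57.9%, against 5.14% and 7.12%). Among the 573 genes with held falls, 453 had a window and 23.0% of these contained TTTGAA. In the genes of DNA replication, where 38 of 47 had a window, the share was 21.1% for TTTGAA and 57.9% for CCAAT. A match is a description of the letters, not of a bound site. The windows from 120 bases before to 30 after the start are shown for the 4 mitosis genes with the smallest adjusted p, as examples of this layout, 5′ to 3′ on the gene's strand with matches to either motif, on either strand, in capitals. They lie at chr7:80294331-80294480 (plus strand, Prc1), chr2:129297183-129297332 (minus, Ckap2l), chr8:22185790-22185939 (minus, Ckap2) and chr15:85859587-85859736 (plus, Gtse1).
Prc1: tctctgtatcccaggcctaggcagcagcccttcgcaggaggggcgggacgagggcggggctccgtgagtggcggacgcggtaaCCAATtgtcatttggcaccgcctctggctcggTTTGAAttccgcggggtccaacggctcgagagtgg
Ckap2l: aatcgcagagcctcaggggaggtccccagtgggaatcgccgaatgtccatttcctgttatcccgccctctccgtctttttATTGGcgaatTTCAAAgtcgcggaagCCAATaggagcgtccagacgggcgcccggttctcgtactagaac
Ckap2: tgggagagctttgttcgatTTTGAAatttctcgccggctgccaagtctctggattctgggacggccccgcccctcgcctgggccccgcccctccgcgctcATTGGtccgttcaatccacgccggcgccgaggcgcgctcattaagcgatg
Gtse1: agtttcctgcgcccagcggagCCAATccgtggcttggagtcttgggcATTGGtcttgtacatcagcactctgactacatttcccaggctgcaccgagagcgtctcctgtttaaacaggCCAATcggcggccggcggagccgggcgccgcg
In Prc1 the CCAAT match began 37 bases and the TTTGAA match 5 bases before the start. In Ckap2l an inverted CCAAT began 40 bases, an inverted TTTGAA 30 bases and a further CCAAT 14 bases before the start. In Ckap2 the matches were farther apart, at 101 and 20 bases, and the printed Gtse1 window held 3 CCAAT matches and no TTTGAA.

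The machinery of S phase followed to a lesser extent. Of 47 genes of DNA replication and nucleotide supply 31 fell (19 held) and 1 rose, with a median of -1.35. The helicase subunit genes Mcm2 (64.4 and 59.5 against 13.2 and 12.0 CPM, -2.30) and Mcm5 (76.8 and 96.4 against 21.4 and 19.4 CPM, -2.09) and the licensing factor gene Cdt1 (28.2 and 23.8 against 2.93 and 5.82 CPM, -2.50) had held calls, as did DNA ligase 1 (Lig1, -2.38). Mcm10 rose (1.07), a call lost on total counts, without either lacZ1 library and without shDnajb9 replicate 1. Of 55 replication-dependent histone genes 18 fell (10 held) and none rose, with a median of -0.69, although 43 of the 55 share 20% or more of their 50-base stretches with another gene. Of 28 genes of G1 cyclins, their inhibitors and E2F factors 10 fell (3 held) and 1 rose. Those with held calls were Ccne1, the cyclin that opens S phase (37.7 and 40.8 against 5.66 and 4.34 CPM, -2.99), the atypical repressor E2f7 (-2.90) and Cdkn1a.

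Cdkn1a, which encodes the cyclin-dependent kinase inhibitor p21 and is a standard target of p53, fell together with the cell cycle genes, from 69.6 and 47.3 CPM in lacZ1 to 7.34 and 5.37 CPM in shDnajb9 (9.37-fold, edgeR adjusted p = 0.000163). Of 30 p53 targets 16 fell (11 held) and 1 rose, with a median of -0.90. The death receptor genes Tnfrsf10b (14.5 and 11.8 against 1.68 and 1.60 CPM, -3.01) and Eda2r (26.7 and 35.7 against 7.76 and 4.34 CPM, -2.41) were among the held calls. Of the 20 arrest and repair genes 13 fell, and of the 10 cell death genes 3.

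Genes of the antioxidant response driven by NRF2 formed a further low group. Of 33 members 17 fell (14 held) and 2 rose, with a median of -1.09. On total counts 26 fell, where 3354 of all 13767 tested genes fell. Gstm3, a glutathione transferase with 28.8% shared sequence, went from 1200 and 899 to 60.8 and 68.6 CPM (16.2-fold lower, adjusted p = 0.00013), and Cbr1, a carbonyl reductase, from 428 and 433 to 75.9 and 51.5 CPM (-2.76). Slc7a11, the cystine importer that feeds glutathione synthesis, stood at 47.1 and 60.8 against 1.05 and 1.60 CPM (38.6-fold lower). The 2 risers were the glutathione transferases Gsta3 (1.17) and Gstp1 (1.62, 62.3% shared), of which both calls were lost without either lacZ1 library, without shDnajb9 replicate 1 and on total counts. Serine synthesis and targets of the stress factor ATF4 showed 10 of 25 lower (5 held) and none higher. Psat1, an enzyme of serine synthesis, fell from 6.12 and 6.56 to 0.419 and 1.03 CPM (7.84-fold), the stress hormone gene Fgf21 from 3.10 and 2.74 to 0.210 and 0.343 CPM (9.58-fold), Atf3 from 17.6 and 23.5 to 3.35 and 6.17 CPM (-2.05), and the folate enzyme gene Mthfd1l from 25.3 and 21.9 to 4.82 and 6.39 CPM (-2.05). Of 27 amino acid transporters 8 fell (3 held), among them Slc1a4 (36.4 and 55.2 against 4.61 and 2.74 CPM, -3.69) and Slc1a1 (-3.31), and 1 rose.

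Markers of injured or regenerating liver and of the matrix were low as well. Of 18 injury genes 11 fell (8 held) and 1 rose. Gpnmb, a glycoprotein of macrophages and lipid-laden cells, fell from 62.3 and 45.4 to 3.77 and 4.22 CPM (13.3-fold), Lcn2, the lipocalin of acute injury, from 206 and 195 to 38.8 and 32.5 CPM (5.64-fold), and annexin A2 (Anxa2) from 64.1 and 70.0 to 16.4 and 17.5 CPM (-1.98). The riser Tff3, a secreted trefoil peptide, went from 5.05 and 7.87 to 29.1 and 27.4 CPM (4.40-fold). Of 62 collagens, laminins and proteases 30 fell (15 held) and 3 rose, with a median of -1.10. Mmp12, the macrophage elastase, fell from 46.5 and 60.1 to 0.629 and 3.77 CPM (21.3-fold), the metalloprotease gene Adam8 from 23.3 and 19.8 to 1.89 and 2.17 CPM (-3.38), tenascin C (Tnc) from 28.7 and 17.1 to 1.68 and 3.65 CPM (-3.01) and thrombospondin 1 (Thbs1) from 21.8 and 23.7 to 3.77 and 5.59 CPM (-2.24). The held risers were Lama3 (5.67 and 6.20 against 22.0 and 26.9 CPM, 2.05) and Col27a1 (1.44). Of 27 actin and tubulin genes 16 fell (6 held) and none rose, with a median of -1.24. Tubb6 went from 123 and 167 to 16.8 and 20.9 CPM (-2.94), and the microtubule regulator Stmn1 (36.5% shared) from 34.1 and 41.0 to 11.5 and 9.70 CPM (-1.83).

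Levels of markers of other cells moved in part with these groups, where 12.6% of all tested genes fell and 11.6% rose. The share of falls was below this background for T and NK cell markers. For sinusoidal endothelial markers the share of rises was near it. Summed CPM of 12 measured neutrophil markers were 56.1 and 26.6 in lacZ1 and 7.55 and 18.0 in shDnajb9, and 6 of 9 tested members fell, none with a held call, none without lacZ1 replicate 1 and 1 without either shDnajb9 library. Summed over 18 cholangiocyte and progenitor markers, CPM were 159 and 145 against 58.7 and 98.1 (3 of 11 lower), and over 20 stellate cell and fibroblast markers 809 and 732 against 512 and 665 (6 of 19 lower, 4 higher). Of these, the collagen gene Col3a1 fell with a held call, from 274 and 226 to 95.4 and 78.7 CPM. For 17 Kupffer cell and macrophage markers the sums were 2000 and 2360 against 1770 and 1950, with 3 of 16 lower, of which Itgam (18.0 and 8.82 against 1.68 and 3.65 CPM) held and shares 72.4% of its sequence. For 25 T and NK cell markers the sums were 110 and 92.7 against 54.1 and 77.8 (1 of 22 lower), for 10 B and plasma cell markers 9.04 and 11.7 against 11.1 and 11.5 (none called of 5), and for 23 sinusoidal endothelial markers 1120 and 1050 against 1080 and 1340 (3 higher). Their part in the falls above was not tested. In bulk tissue fewer cells of a type and less RNA per cell cannot be told apart.

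**Figure D3:**
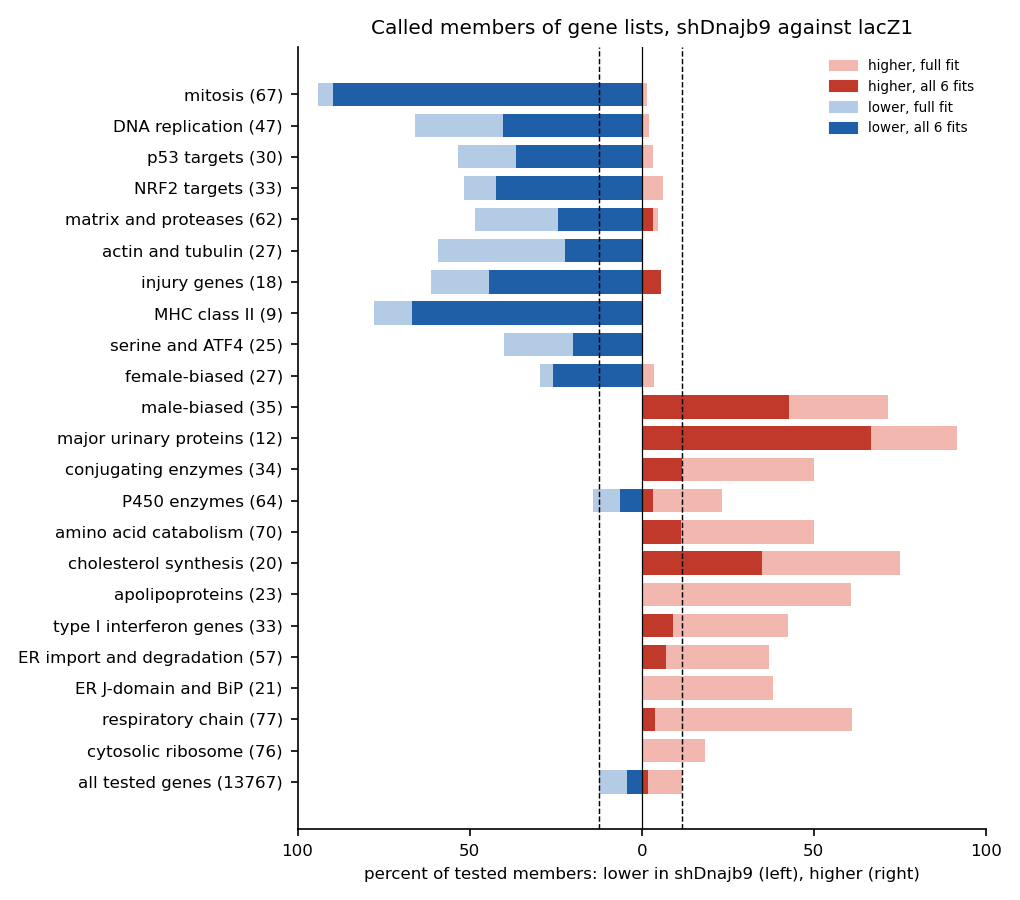
Percent of tested members (number in brackets) that were lower (left, blue) or higher (right, red) in shDnajb9 than in lacZ1, for 22 gene lists and all tested genes. Pale bars are calls of the full fit, dark bars calls held in all 6 fits, and dashed lines mark the shares among all tested genes (12.6% lower, 11.6% higher), so that mitosis and the major urinary proteins stand at opposite ends.

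On the high side, genes with a male-biased level in mouse liver stood out. Sex differences of rodent liver are set largely by the pattern of growth hormone pulses, acting through STAT5. Of 35 tested male-biased genes 25 rose (15 held) and none fell, with a median of 2.13, while of 27 female-biased genes 8 fell (7 held) and 1 rose, with a median of -1.15. Slco1a1, a male-biased organic anion importer, rose from 23.8 and 42.6 to 750 and 794 CPM (23.3-fold, edgeR adjusted p = 0.000613). The female-biased anion transporter gene Slc22a27 (30.5% shared) went the other way, from 9.40 and 11.6 to 0.629 and 0.343 CPM (-4.50), as did lipoprotein lipase (Lpl), from 149 and 132 to 31.0 and 36.4 CPM (-2.06). All 4 libraries carried Y-linked transcripts, as given above.

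The major urinary proteins, lipocalins that carry pheromones and make up a large share of what the male mouse liver secretes, rose most. Of 12 tested Mup genes 11 rose (8 held), with a median log2 fold change of 4.26. Mup7 rose from 10.4 and 13.2 CPM to 533 and 789 CPM (56.1-fold), Mup1 at 2.75 and 6.08 against 223 and 189 CPM (47.5-fold), and Mup12 at 0.443 and 0.954 against 46.5 and 62.1 CPM (79.9-fold). The 3 share 90.2%, 94.8% and 85.4% of their 50-base stretches with other genes, so counts cannot be placed with certainty on single copies. Mup21, with 19.3% shared, rose from 8.16 and 17.6 to 373 and 322 CPM (27.1-fold). Reads without a unique alignment, which were not counted for any gene, made up 22.9% and 24.9% of the counts in lacZ1 and 41.3% and 42.0% in shDnajb9. Their part in the Mup values was not tested.

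Other targets of growth hormone and carriers of IGF1 rose too, with 7 of 11 higher (3 held) and 1 lower, whereas of 10 genes of the receptor and its signalling 1 rose and 1 fell. Igfbp2 rose from 43.0 and 62.6 to 442 and 260 CPM (6.65-fold), Igfbp3 from 2.84 and 5.01 to 19.1 and 22.7 CPM (2.44) and Igfals, the acid-labile subunit of the circulating IGF1 complex, from 40.0 and 43.2 to 118 and 89.3 CPM (1.31). The signalling gene that fell was Stat5a (51.8 and 42.2 against 18.9 and 23.5 CPM, -1.14), a call lost without lacZ1 replicate 1 and without shDnajb9 replicate 1.

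Enzymes of drug and steroid metabolism divided by class. Of 34 conjugating enzymes 17 rose (4 held) and none fell. Examples are the carboxylesterase gene Ces3b (26.1% shared, 24.7 and 33.5 against 330 and 311 CPM, 3.46) and the sulfotransferase genes Sult1b1 (6.21 and 12.3 against 47.8 and 43.5 CPM, 2.32) and Sult5a1 (2.45). Of 64 P450 genes 15 rose (2 held) and 9 fell (4 held). Besides Cyp2a4, the held falls were Cyp2b10, the classical target of the receptor CAR (9.57 and 12.3 against 1.89 and 1.94 CPM, -2.50), Cyp1a1, the target of the aryl hydrocarbon receptor (-2.30), and Cyp21a1, the steroid 21-hydroxylase (23.7% shared, 16.0 and 10.7 against 2.31 and 2.28 CPM, -2.55). Uptake and export carriers moved apart: 9 of 23 uptake genes rose (3 held) and 3 fell, while 1 of 16 export genes rose and 5 fell (4 held), among them Abcb1a, a P-glycoprotein gene (83.5 and 58.4 against 7.97 and 7.31 CPM, -3.22). The median was 0.49 for uptake and -0.90 for export.

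Amino acid breakdown rose across its branches. Of 70 genes of the urea cycle and amino acid catabolism 35 rose (8 held) and none fell, with a median of 1.06. Without lacZ1 replicate 1 the number was 8, without shDnajb9 replicate 1 it was 21, and on total counts 22. The enzymes for aromatic amino acids and histidine rose most often, 12 of 16 (5 held). Haao, which acts in tryptophan breakdown, rose from 147 and 192 to 1250 and 695 CPM (5.73-fold), Hal, the first enzyme of histidine breakdown, from 84.6 and 113 to 377 and 384 CPM (3.85-fold), and Prodh, the first enzyme of proline breakdown, from 42.6 and 49.1 to 339 and 367 CPM (7.70-fold). Hpd, the 4-hydroxyphenylpyruvate dioxygenase of tyrosine breakdown, rose from 379 and 458 to 2870 and 2340 CPM (2.64). It is also 1 of 17 hepatocyte markers, of which 8 rose (1 held, Hpd itself) and none fell. The summed CPM of these markers were 65000 and 83900 in lacZ1 and 116000 and 103000 in shDnajb9.

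Cholesterol synthesis was the most uniform of the lipid pathways, with 15 of 20 genes higher (7 held), none lower and a median of 1.24. Fdps, the farnesyl diphosphate synthase, rose from 55.4 and 82.8 to 617 and 459 CPM (7.79-fold, edgeR adjusted p = 0.000291), Tm7sf2, a sterol reductase, from 33.2 and 47.7 to 385 and 173 CPM (2.79) and the mevalonate pathway kinase gene Pmvk from 12.3 and 18.4 to 68.1 and 49.8 CPM (1.94). In the 300-base promoter windows, found for 15 synthesis genes, the sterol element TCACNCCAC was present in 1 (6.67%), against 1.18% of the tested genes. A CCAAT was present in 13 of the 15 (86.7%), against 38.8% of the tested genes. Apolipoproteins and their assembly genes rose in 14 of 23 cases and fell in none, but no call held: without lacZ1 replicate 1 none remained and without shDnajb9 replicate 1 there were 4. Apoa1, the main protein of high density lipoprotein, stood at 2800 and 3570 against 18000 and 9350 CPM (2.10, adjusted p = 0.00999), a call lost without either lacZ1 library and without shDnajb9 replicate 1. Bile acid synthesis and the FXR axis showed 10 of 21 higher and 2 lower with no held call, Cyp8b1, the sterol 12-alpha-hydroxylase, standing at 88.6 and 171 against 624 and 550 CPM (2.18, lost without lacZ1 replicate 1).

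Of 30 lipogenesis genes 4 rose (2 held) and 2 fell, where 11.6% of all tested genes rose and 12.6% fell, so that the share of risers was near the background. Thrsp, a lipogenic regulator known as Spot 14, rose from 138 and 183 to 1310 and 917 CPM (6.95-fold), and Acss2, which makes cytosolic acetyl-CoA, from 88.5 and 104 to 345 and 347 CPM (1.85), while the desaturase gene Scd2 fell from 49.5 and 55.8 to 11.1 and 10.2 CPM (-2.31). Of 37 genes of triglyceride and lipid droplets 7 fell (4 held) and 4 rose (none held). Plin4, a lipid droplet coat protein, fell from 85.7 and 64.5 to 3.56 and 10.5 CPM (10.1-fold), Cidec, which enlarges droplets, from 57.8 and 62.5 to 14.3 and 7.76 CPM (-2.48), and the fatty acid translocase gene Cd36 from 204 and 361 to 71.3 and 65.8 CPM (-2.04). Of 51 genes of fatty acid oxidation and ketogenesis 10 rose and 2 fell, with a median of 0.09, and Acot2 was the only held call. Without lacZ1 replicate 1 none of these rose.

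Glucose genes differed by pathway, where 11.6% of all tested genes rose and 12.6% fell. Of 30 glycogen genes 2 rose and 3 fell, both below the shares of all tested genes, with a median of -0.16. Besides Ppp1r3g, the held calls included the brain glycogen phosphorylase Pygb (75.4 and 71.0 against 16.1 and 19.4 CPM, -2.03). Of 34 genes of glycolysis and glucose uptake 6 rose and 9 fell. The held risers were Khk, the ketohexokinase that starts fructose use (250 and 294 against 1730 and 736 CPM, 2.18), and Aldoc, and the held fallers were Pkm, the pyruvate kinase of non-hepatocyte and dividing cells (308 and 295 against 107 and 111 CPM, -1.46, 34.4% shared), and Hkdc1, a hexokinase (10.7 and 8.47 against 0.00 and 0.228 CPM). Of 27 gluconeogenesis genes 10 rose and 2 fell. Among its enzymes and carriers 8 of 16 rose and 2 fell, with a median of 1.11, and among its regulators 2 of 11 rose, with a median of 0.09. Slc37a4, the glucose-6-phosphate translocase, was the 1 held call (87.5 and 88.4 against 287 and 279 CPM, 1.69). Of 43 genes of mTOR and insulin signalling 3 rose and 4 fell, both below the shares of all tested genes, with a median of 0.07. The 1 held call was Mlst8, a subunit shared by both mTOR complexes (log2 fold change -1.54). Irs2 (22.5 and 13.5 against 26.2 and 51.3 CPM, 1.11) and Akt2 (108 and 105 against 237 and 145 CPM, 0.84) rose. Both of these calls were lost on total counts and without either lacZ1 library. The Irs2 call was also lost without shDnajb9 replicate 2, and the Akt2 call without shDnajb9 replicate 1.

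Complement genes were higher in 9 of 27 cases (2 held) and lower in none. C8b, a subunit of the membrane attack complex, went from 85.1 and 130 to 1150 and 795 CPM (9.07-fold), and the mannose-binding lectin gene Mbl1 from 45.9 and 63.6 to 334 and 181 CPM (2.23). Of 28 coagulation genes 13 rose and 2 fell, with F7, coagulation factor VII, as the held riser (50.4 and 46.6 against 169 and 116 CPM, 1.55). Of 32 acute phase proteins 6 rose and 8 fell. Crp rose from 58.4 and 65.0 to 348 and 263 CPM (4.95-fold), whereas Saa3 (-1.86), the interleukin 1 receptor antagonist Il1rn (21.1 and 24.1 against 3.98 and 5.02 CPM, -2.30), Lcn2 and the lipopolysaccharide receptor Cd14 (-1.69) fell, all with held calls. Of 34 hepatokines and liver hormones 12 rose (4 held) and 4 fell (2 held), the adropin gene Enho rising from 8.60 and 9.78 to 125 and 48.8 CPM (9.42-fold) and Lect2, a chemotactic hepatokine, from 8.60 and 10.6 to 27.0 and 30.7 CPM (1.60).

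Interferon and antigen presentation genes moved in both directions. Of 33 genes induced mainly by type I interferon 14 rose (3 held) and none fell. Ifit1 stood at 24.2 and 31.7 against 204 and 113 CPM (5.66-fold), Isg15, a ubiquitin-like modifier, at 11.6 and 11.2 against 56.6 and 35.1 CPM (3.99-fold), and Ifit3 at 30.3 and 31.7 against 95.0 and 102 CPM (1.67, 51.2% shared). In contrast 5 of 18 genes induced mainly by type II interferon fell (1 held) and none rose, and 7 of 9 MHC class II genes fell (6 held). The class II chains H2-Aa (262 and 288 against 47.8 and 74.9 CPM, 4.46-fold lower) and H2-Eb1 (250 and 210 against 58.3 and 59.1 CPM, -1.97) and their shared activator Ciita (63.2 and 39.5 against 4.61 and 13.8 CPM, -2.42) were among the held calls. Of 19 MHC class I genes 5 rose, with no held call. Of 41 chemokines and cytokines 6 fell (5 held) and 1 rose. Of all tested genes 12.6% fell and 4.16% had held falls, so the share of all falls was near the background. Those that fell included the alarmin Il33 (10.3 and 8.82 against 2.31 and 2.97 CPM, -1.82), the TWEAK receptor Tnfrsf12a (38.5 and 52.7 against 7.76 and 4.45 CPM, -2.95) and Ccl6 (-1.57).

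Large complexes encoded by short transcripts rose in the full fit with few held calls. Of 77 respiratory chain genes 47 rose (3 held) and none fell, with a median of 1.04, and complex I contributed 29 of its 35. Ndufb10, a complex I subunit, went from 61.4 and 71.9 to 301 and 231 CPM (3.98-fold, edgeR adjusted p = 0.000518). The number of risers was 3 without lacZ1 replicate 1, 15 without shDnajb9 replicate 1, 60 without shDnajb9 replicate 2 and 18 on total counts. Median transcript length was 1141 bases for the list and 3324 for all tested genes. Across 13653 genes the log2 fold change correlated with log2 length at r = -0.211 (across genes of these 4 libraries, which share library effects). Length and GC were also fitted to each library's deviation in log2 CPM from the gene means over the 8 libraries. They explained 12.5% and 1.11% of the variance of that deviation in the lacZ1 libraries and 13.5% and 5.04% in the shDnajb9 libraries. Among the 3414 shortest genes 20.7% rose and 8.58% fell, and among the 3411 longest 4.90% rose and 16.8% fell. With an offset for length and GC in each library, 48 of the 77 respiratory chain genes rose, with a median of 0.77.

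Of 76 cytosolic ribosomal proteins 14 rose and none fell, 29 without shDnajb9 replicate 2, 3 without lacZ1 replicate 2, and none without either of the other libraries or on total counts. Of 77 mitochondrial ribosomal proteins 22 rose with no held call, and of 47 proteasome genes 16 rose, the 1 held call being the assembly chaperone Psmd9 (21.1 and 21.5 against 55.6 and 43.0 CPM, 1.21). Of 57 genes of ER-associated degradation, translocation and folding 21 rose (4 held) and none fell, with a median of 0.70. The held calls were Selk, a selenoprotein of the degradation complex (26.9 and 31.7 against 134 and 95.9 CPM, 1.97), Derl2, a degradation channel component (63.2 and 70.8 against 247 and 165 CPM, 1.62), Edem2, a mannosidase of glycoprotein degradation (64.1 and 56.2 against 204 and 149 CPM, 1.55), and the disulfide isomerase Pdia5 (1.43). Without lacZ1 replicate 1 these were 4 risers, and with the length and GC offset 29.

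**Figure D4:**
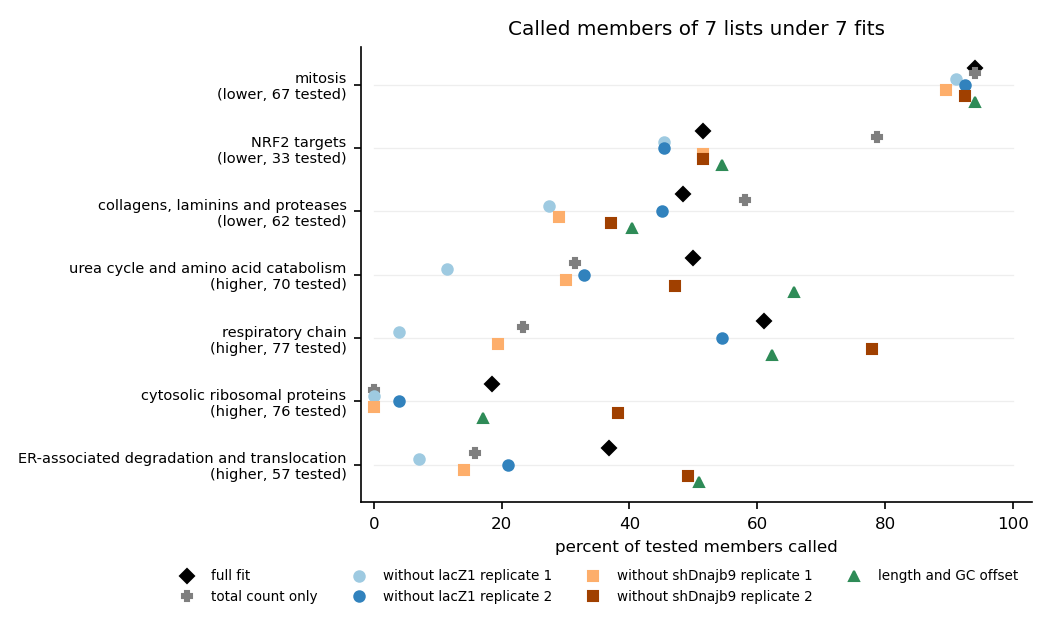
Percent of tested members called in the stated direction (horizontal axis) for 7 lists (vertical axis), 1 symbol per fit: the full fit, total counts, each of the 4 libraries left out, and the length and GC offset. Mitosis stays near its full value of 63 of 67 in all 7 fits, whereas the respiratory chain ranges from 3 to 60 of 77 and the cytosolic ribosomal proteins from 0 to 29 of 76.

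In the remaining lists the counts are to be read against the 11.6% higher and 12.6% lower of all tested genes. Of 27 clock genes 5 rose, with a held call for Dbp among them (35.5 and 28.3 against 92.2 and 71.0 CPM, 1.35), and 1 fell. Of 52 nuclear receptors and hepatocyte factors 4 rose and 7 fell, with held falls of the immediate early gene Egr1 (17.6 and 11.1 against 1.47 and 2.40 CPM, 7.07-fold) and of Klf6 (-1.34). Of 23 pericentral genes 4 rose and 3 fell, of 46 autophagy and lysosome genes 6 rose and 1 fell, of 50 heat shock genes 7 rose and 4 fell, of 59 translation factors 4 rose and 1 fell, and of 20 tRNA synthetases none rose and 2 fell. Of these synthetases Vars held (192 and 114 against 27.3 and 46.5 CPM, 4.11-fold lower). Of 9 structural and nuclear noncoding RNA genes 1 rose (Terc) and 1 fell (Neat1), with no held call.

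Each hairpin was set against its own control, so the 2 contrasts share no library. Of the 839 held calls, 685 (81.6%) were also called in the same direction for shRictor minus lacZ2, where 7.31% of all tested genes rose and 10.9% fell, and 2 were called in the opposite direction. The same 685 genes made up 27.3% of the 2508 genes called for shRictor. By sign, 69.9% of the held risers and 87.1% of the held fallers were shared. For some genes the values ran side by side. Ly6d gave -4.58 with the Dnajb9 and -5.35 with the Rictor hairpin, Cbr3 -5.26 and -5.08, and Cyp2a4 -5.80 and -6.29. Mup7 gave 5.81 and 5.18, Slco1a1 4.54 and 4.02, and Prc1 -3.12 and -2.87. For others the size differed: Alas2 gave 3.25 and 1.62, Epb4.1l1 -3.37 and -1.98, and Ces3b 3.46 and 4.51. In edgeR's test of the difference, 22.4% of the held calls had an unadjusted p under 0.05, against 10.9% of all tested genes. In the mitosis list 63 of 67 fell in each contrast.

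**Figure D5:**
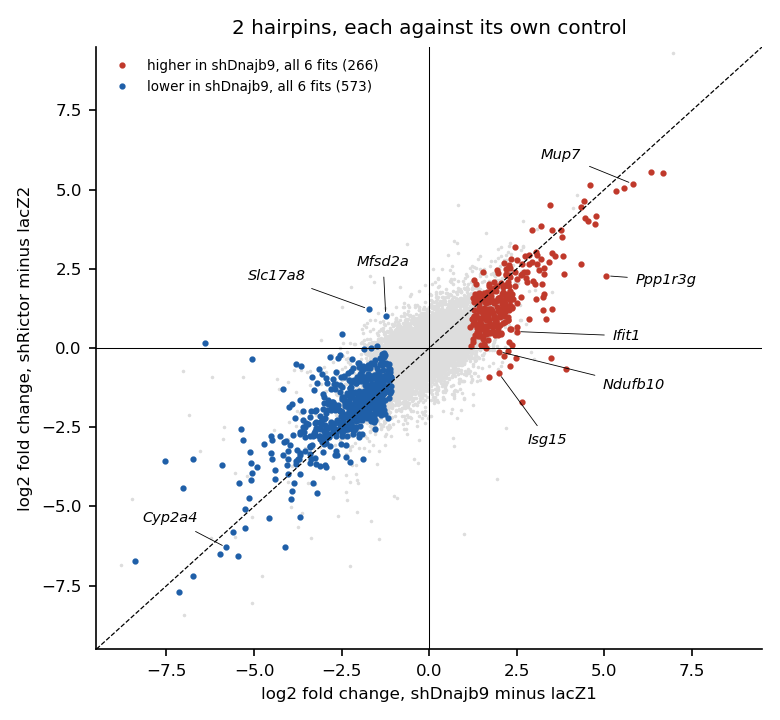
Log2 fold change of shRictor minus lacZ2 (vertical axis) against shDnajb9 minus lacZ1 (horizontal axis) for the 13767 tested genes in grey, with the 266 held risers in red and the 573 held fallers in blue; the dashed line marks equal values. Most coloured points lie in the 2 same-sign quadrants, and Slc17a8 (-1.73 and 1.23) and Mfsd2a (-1.24 and 1.02) lie in the upper left.

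Tested directly, the effects of the 2 hairpins differed at an adjusted p under 0.05 for 1 gene, 0.00726% of those tested, while 1495 genes had an unadjusted p under 0.05. That gene was Slc17a8 (chr10:89574020-89621253, minus strand), which encodes the vesicular glutamate transporter VGLUT3. With the Dnajb9 hairpin it fell from 31.0 and 35.1 to 9.64 and 10.2 CPM (3.32-fold, edgeR adjusted p = 0.000469). With the Rictor hairpin it rose, from 31.8 and 39.5 to 79.3 and 88.4 CPM. The 4 control libraries lay together, both Dnajb9 libraries below them and both Rictor libraries above. The difference between the effects was -2.97 (SE 0.332, adjusted p = 0.0085). It kept its size but not its call without lacZ1 replicate 2 (-2.89, adjusted p = 0.0686), without lacZ2 replicate 1 (-2.83, adjusted p = 0.163) and without shRictor replicate 2 (-2.89, adjusted p = 0.0511). Mfsd2a, the lysophospholipid transporter gene and the other held call in the opposite direction, was singled out after its values were seen. Its difference of -2.26 was not called (adjusted p = 0.122).

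Ppp1r3g rose with both hairpins, by 5.06 and 2.28, and the difference was not called (2.78, SE 0.516, adjusted p = 0.163). Isg15, Cyp2b10, Ndufb10, Ifit1 and Tff3 had held calls with the Dnajb9 hairpin and none with the Rictor hairpin, but the difference itself was not called for any of the 5. Isg15 gave 1.99 and -0.80 (difference 2.79, SE 0.443, adjusted p = 0.122). Cyp2b10 gave -2.50 and 0.45 (-2.95, adjusted p = 0.163), Ndufb10 1.99 and -0.11 (2.10, adjusted p = 0.163), Ifit1 2.50 and 0.52 (1.98, adjusted p = 0.226) and Tff3 2.14 and -0.26 (2.40, adjusted p = 0.226). By list, 14 of 33 type I interferon genes rose with the Dnajb9 hairpin and none with the Rictor hairpin, where 6 fell, and 47 against 1 of 77 respiratory chain genes rose. Those list differences were not tested as such. Across 13653 genes, log2 transcript length and log2 fold change correlated at r = -0.211 for shDnajb9 minus lacZ1. For shRictor minus lacZ2 the value was 0.0274. Respiratory chain transcripts were short, with a median of 1141 bases against 3324 for all tested genes. After the length and GC offset, 48 of the 77 rose with the Dnajb9 hairpin. How far length contributed to the respiratory chain difference was not tested.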

How the data were processed

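Total RNA of liver was extracted with Trizol, treated with DNase, depleted of ribosomal RNA and sequenced, per the labels' protocols. The authors deposited raw counts per gene from HTSeq after adapter trimming with cutadapt, on mm10, per the submitters' processing notes; the aligner, annotation and strand setting are not given in the sources used here, so reads of antisense partners cannot be told apart. Rows without a gene name were left out: reads without a unique alignment made up 22.9% to 42.0% of each library in the contrast. Genes were filtered with filterByExpr (minimum count 10), scaled with TMM and tested with edgeR 4.0.16 (quasi-likelihood, 4 group means over 8 libraries, Benjamini-Hochberg, threshold 0.05) in R 4.3.3. Alternatives used limma 3.58.1 and DESeq2 1.42.0, other scalings and filters, a length and GC offset, left-out libraries and a replicate block. Sequence is called shared where a gene's 50-base stretches occur in another gene; from 20% upward this is named beside the value. Named genes are those with the smallest adjusted p among held calls, and the leading held calls of each gene list. The first kind also had to show no overlap between the groups and an average log2 CPM of 3 or more. Members and lists were chosen with earlier results of these data known. Some genes this rule names are not reported here. With 2 libraries per group the precision is limited by their spread rather than by depth.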

Additional observations from a re-analysis of the deposited data

Results flagged for a closer look

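Slc17a8 was the 1 gene called in the full fit of edgeR's test of the difference between the 2 hairpins. Its difference was -2.97 on the log2 scale (adjusted p = 0.0085). Genes not called there may still differ. The mice of the 2 contrasts were 3 and 4 months old, so hairpin and age cannot be told apart. The values in all libraries are given above.

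Reads that HTSeq did not count because they lacked a unique alignment lie outside the gene measurements. Their mean share was 41.6% in the shDnajb9 libraries and 23.9% in the lacZ1 libraries, and which transcripts they came from was not tested.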

How the results depend on the processing

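The count of 3325 called genes ranged from 988 to 4157 when 1 library at a time was left out, with 988 without lacZ1 replicate 1, 1365 without shDnajb9 replicate 1, 2050 without lacZ1 replicate 2 and 4157 without shDnajb9 replicate 2, and it was 1314 when a change above 1.5-fold was required. The count of 1 gene for the difference between hairpins was 395 with no filter on low counts, 43 with DESeq2 and 3 with the replicate block, and ranged from 0 to 17 with 1 library left out; the fits with 0 had 1499, 1110 and 604 genes at an unadjusted p under 0.05. The causes were not tested. Replicate numbers did not pair the samples (correlation of deviations -0.28), and the replicate block gave 3289 called genes. The crossed pairing, chosen after seeing the data, gave 2992. For 237 named genes, 3688 alternative values kept direction and side of the threshold, 290 lost the call, 11 gained it and 13 changed sign. Many of these genes were chosen for held calls, and the total count and left-out fits used for that choice are among the alternatives. The tally is therefore not independent of the choice. On total counts Atf6 gave -0.25, Creld2 -0.02, Dnajb12 -0.26, Dnajb14 -0.03, Dnajc18 -0.17, Eif2ak3 -0.36, Kdm5d -0.19 and Xbp1 -0.14. With 1 library left out Eif2ak3 ranged from -0.08 to 0.17 (-0.01 without lacZ1 replicate 2) and Ern1 from -0.52 to 0.15 (0.05 without lacZ1 replicate 1), and Ern1 gave 0.34 with the length and GC offset. None of these was called in the full fit. Of the list counts, 778 stayed within 1.5 times the full fit and 225 did not.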
